A study of Mus musculus with 3 samples.

Results

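Among all captured transcripts, the share of interferon-inducible GTPases in T cells from MC38 tumours was lowest in the library labelled homo. It was below the libraries labelled mix and PBS in CD8 and CD4 gated cells and, less widely, in Foxp3 gated cells. The genes followed were the guanylate-binding protein genes Gbp2, Gbp3, Gbp4, Gbp5, Gbp6, Gbp7 and Gbp9 and the immunity-related GTPase genes Igtp, Irgm1 and Iigp1. They were chosen by symbol as members of the mouse Gbp and IRG families, and are 10 of the 32285 genes in the files. All 10 had UMIs, the unique molecular identifiers that count captured transcripts, in every gate of every library. MC38 is a mouse colon carcinoma line, and the tumours were removed at day 15, following 5 days of treatment. CD3-stained cells were sorted from the digest and profiled with a 10x Genomics 3′ kit. The groups were homo, mix and PBS, with 1 library each, so no difference between them has a replicate check and no test was made. The labels give neither the agent behind homo and mix nor the strain, sex, age or number of the animals, and the series title speaks of an interleukin-2 aimed at T cells through LAG3, a checkpoint receptor.

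Interferon-gamma binds the receptor chains Ifngr1 and Ifngr2, and the signal passes through the kinases Jak1 and Jak2 to GAS elements in DNA. Irf1 is induced and binds ISRE elements, and both element types lie before many GTPase genes. Type I interferons act on ISRE elements and induce many of the same genes. In mouse cells the GBPs gather on vacuoles and membranes of intracellular pathogens such as Toxoplasma, and the effector IRG Iigp1 loads onto the same vacuoles while Igtp and Irgm1 regulate it. In T cells these transcripts are widely read as a sign of exposure to interferon.

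Most members lie on 3 chromosomes, described here by the order of genes in the RefSeq annotation of GRCm38.p6. Chromosome 3 holds Gbp5, Gbp7, Gbp3 and Gbp2, in that order, with Gbp2b between the last pair. Chromosome 5 holds Gbp9, Gbp4 and Gbp6 among Gbp8, Gbp10 and Gbp11. Chromosome 11 holds Irgm1 and Igtp, and Iigp1 lies apart from all of these. The promoter windows of Irgm1 and Igtp given below start at bases 48871421 and 58199496, so this pair is not called a cluster here. Genes within the chromosome 3 or the chromosome 5 cluster are close relatives, most of all Gbp6 and Gbp10. The split of reads between near-identical copies is therefore uncertain in these counts.

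Promoter sequence, the 250 bases before each start, was listed by RefSeq (GRCm38.p6) for 6 members, with 7 starts in all because Gbp3 has 2. Entries were matched by symbol, and Gbp4, Gbp6, Gbp9 and Iigp1 had none. The ISRE core, GAAA and GAAA again after 2 bases of any kind, searched on both strands, was found before 6 of the 7 starts, against 2.98% of all 32851 listed promoters. The GAS motif TTCNNNGAA, which reads the same on both strands, was found before 3 of the 7 starts, against 7.02% of all promoters. Both motifs stood before the starts of Gbp5, Gbp7 and Igtp, 3 of 7 starts, against 0.332% of all promoters. A match is a description of letters and not evidence of binding. The 60-base windows below are shown because they hold the motif that the genes share, with the ISRE core in capitals (as its reverse complement where it lies on the opposite strand, and as a longer run where 2 matches overlap), each in the direction of its gene. The windows lie at chr3:142496744-142496803 (Gbp5), chr3:142530258-142530317 (Gbp7), chr3:142559980-142560039 (Gbp3, first start) and chr3:142620579-142620638 (Gbp2), all on the plus strand. Those of Irgm1 and Igtp lie at chr11:48871421-48871480 on the minus strand and chr11:58199496-58199555 on the plus strand.
Gbp5: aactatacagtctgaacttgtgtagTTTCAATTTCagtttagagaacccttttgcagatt
Gbp7: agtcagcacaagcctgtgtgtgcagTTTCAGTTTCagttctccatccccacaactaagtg
Gbp3: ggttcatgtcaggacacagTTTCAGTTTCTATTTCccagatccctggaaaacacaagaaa
Gbp2: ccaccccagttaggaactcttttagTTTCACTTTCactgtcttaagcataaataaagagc
Irgm1: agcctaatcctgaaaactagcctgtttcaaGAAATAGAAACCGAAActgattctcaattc
Igtp: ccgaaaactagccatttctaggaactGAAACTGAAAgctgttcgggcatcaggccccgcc

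The libraries differed in depth and in cell makeup. The median barcode held 6582 UMIs in homo, 4955 in mix and 4748 in PBS, and barcodes over the mitochondrial limit of 10% were 4.07% in homo, 0.307% in mix and 0.251% in PBS. After filtering, 7303, 7588 and 9214 cells were kept in homo, mix and PBS, and 203 to 234 barcode sequences per library also occurred in another library. Cells with a CD3 transcript were gated by their own RNA. The CD8 gate needed Cd8a or Cd8b1 without Cd4 and Foxp3, the CD4 gate needed Cd4 without the others, and the Foxp3 gate needed Foxp3 without the CD8 genes. The CD8 gate held 6517 cells in homo, 5587 in mix and 7117 in PBS, the CD4 gate 70, 309 and 317 cells, and the Foxp3 gate 124, 807 and 842 cells in the same order. Levels are UMIs scaled to counts per 1000000 UMIs of the gate (CPM), with no division by transcript length because the kit counts 3′ ends. Intervals are exact 95% intervals of the counts and hold the error of counting alone. Differences among animals, digests or preparations stand outside them, and for levels, means and ratios so does the spread among cells. With cells thinned to equal depth, the variance of summed GTPase UMIs per cell was above the mean in every gate. Variance over mean was 2.3 in homo, 2.6 in mix and 3.1 in PBS in the CD8 gate. In the same order it was 4.0, 5.4 and 5.4 in the CD4 gate and 2.4, 2.7 and 2.7 in the Foxp3 gate. Counting alone would set the variance equal to the mean, so these intervals are too narrow for the spread among cells.

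In the CD8 gate the summed GTPases were at 843 CPM in homo, 1191 CPM in mix and 1100 CPM in PBS. Before scaling, the gate held 43020 GTPase UMIs in 6517 cells of homo, 42321 in 5587 of mix and 45289 in 7117 of PBS. Unscaled UMIs per cell were thus not lower in homo than in PBS, at median depths of 6912 UMIs in homo and 5113 in PBS. The lower level in homo is a share of a larger total, and sequencing depth and RNA content per cell cannot be told apart here. Set against PBS, the ratio of homo was -0.38 on the log2 scale (-0.40 to -0.36), that of homo to mix was -0.50 (-0.52 to -0.48), and that of mix to PBS was 0.11 (0.095 to 0.13). Each of the 10 members was lowest in homo, with every interval below 0 against both other libraries. Few of them passed the 1.5-fold limit that counts as apart here: 2 of 10 were lower in homo than in PBS, where 4.38% of 5908 genes past the floor were, and 0 of 10 were higher, where 2.89% of genes were. The floor asked for 20 CPM in either library and 20 UMIs in both together. Those 2 were Gbp2 and Iigp1, and Iigp1 was under 20 CPM in homo and entered only through PBS. The median ratio of the members was -0.37, beside -0.050 over all genes past the floor. Markers of other cell types in this gate were read as sums of fixed lists. The 10 macrophage markers, all with UMIs in each library, summed to 22.2 CPM in homo, 14.0 CPM in mix and 29.9 CPM in PBS, and the 10 dendritic cell markers to 9.39, 56.7 and 71.0 CPM, mostly Cd74. The 7 NK cell markers, some of which activated CD8 T cells also carry, summed to 558 CPM in homo, 542 CPM in mix and 485 CPM in PBS, with Gata2 at 0 in each. Without cells carrying at least 2 UMIs of markers of other types, a set that leaves out the NK markers and genes that T cells can carry, such as Cd74, the summed log2 ratio of homo to PBS was -0.37.

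**Figure D1:**
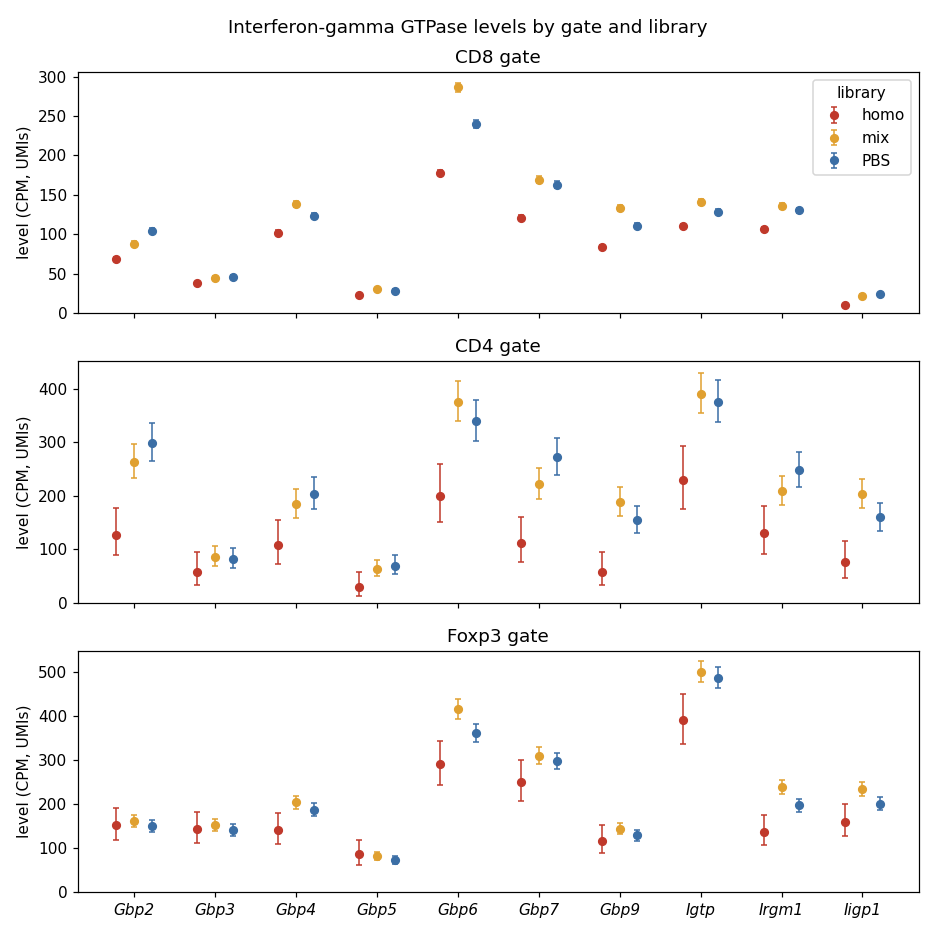
Level of each GTPase (vertical axis, CPM) in the homo, mix and PBS libraries, with 1 panel per gate; points are CPM of summed UMIs and bars are exact 95% counting intervals of 1 library. In the CD8 gate all 10 homo points lie lowest, and Gbp6 is highest in each library at 178, 286 and 240 CPM in homo, mix and PBS.

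Gbp6 was the highest member of the CD8 gate, at 178 CPM in homo, 286 CPM in mix and 239.9 CPM in PBS. Gbp7, which acts against Toxoplasma in mouse cells, followed at 121 CPM in homo, 169 CPM in mix and 163 CPM in PBS. Beside Gbp6, the chromosome 5 cluster held Gbp4, at 102 CPM in homo, 138 CPM in mix and 124 CPM in PBS, and Gbp9, at 84.2 CPM in homo, 134 CPM in mix and 111 CPM in PBS. Thus for Gbp4, Gbp6 and Gbp9 mix stood above PBS and homo below it. The log2 ratios of homo to mix were -0.44 for Gbp4, -0.68 for Gbp6 (-0.72 to -0.64) and -0.67 for Gbp9 (-0.73 to -0.61), and Gbp6 and Gbp9 passed the 1.5-fold limit.

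The chromosome 3 cluster beside Gbp7 was lower in level. Gbp2, a GBP that coats pathogen vacuoles in mouse cells, was at 68.8 CPM in homo, 88.2 CPM in mix and 105 CPM in PBS. It passed the limit in homo against PBS, with a log2 ratio of -0.60 (-0.67 to -0.54), and was also lower in mix than in PBS, at -0.25 (-0.31 to -0.18). Gbp3 was at 38.2 CPM in homo, 44.8 CPM in mix and 45.9 CPM in PBS, so mix and PBS did not differ beyond counting error for it (-0.03, -0.13 to 0.06). Gbp5, which promotes assembly of the NLRP3 inflammasome, was at 22.7 CPM in homo, 30.5 CPM in mix and 28.7 CPM in PBS.

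Of all members, Igtp lay closest to PBS in homo and Iigp1 farthest from it. Igtp was at 110.4 CPM in homo, 141 CPM in mix and 129 CPM in PBS, a log2 ratio of homo to PBS of -0.22 (-0.28 to -0.17). Irgm1 was at 107 CPM in homo, 136 CPM in mix and 130.4 CPM in PBS, with a log2 ratio of -0.29 (-0.35 to -0.24). Iigp1, the effector, was the lowest member at 10.7 CPM in homo, 22.3 CPM in mix and 24.0 CPM in PBS. Its log2 ratios, -1.17 against PBS (-1.33 to -1.02) and -1.07 against mix (-1.22 to -0.91), were farther from 0 than those of any other member. Iigp1 was under the 20 CPM floor in homo and entered these comparisons only through mix and PBS.

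The order of levels in the CD8 gate was nearly the same in each library. Gbp6 came first and Gbp7 second, with no overlap of intervals. Igtp, Irgm1 and Gbp4 overlapped as neighbours, in mix together with Gbp9, whose interval (130.0 to 138 CPM) met that of Irgm1 (132 to 140 CPM). Gbp9, Gbp2, Gbp3, Gbp5 and Iigp1 then followed in each library, and in PBS the intervals of Gbp9 and Gbp2 just met. Against mix, 3 of 10 members were at least 1.5-fold lower in homo (Gbp6, Gbp9 and Iigp1), where 4.12% of genes were, and 0 of 10 were higher, where 2.71% of genes were. Between mix and PBS no member was 1.5-fold apart, where 0.361% of genes were higher and 0.551% lower in mix. The intervals of 6 members lay above 0 in mix against PBS and that of 1, Gbp2, below it.

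**Figure D2:**
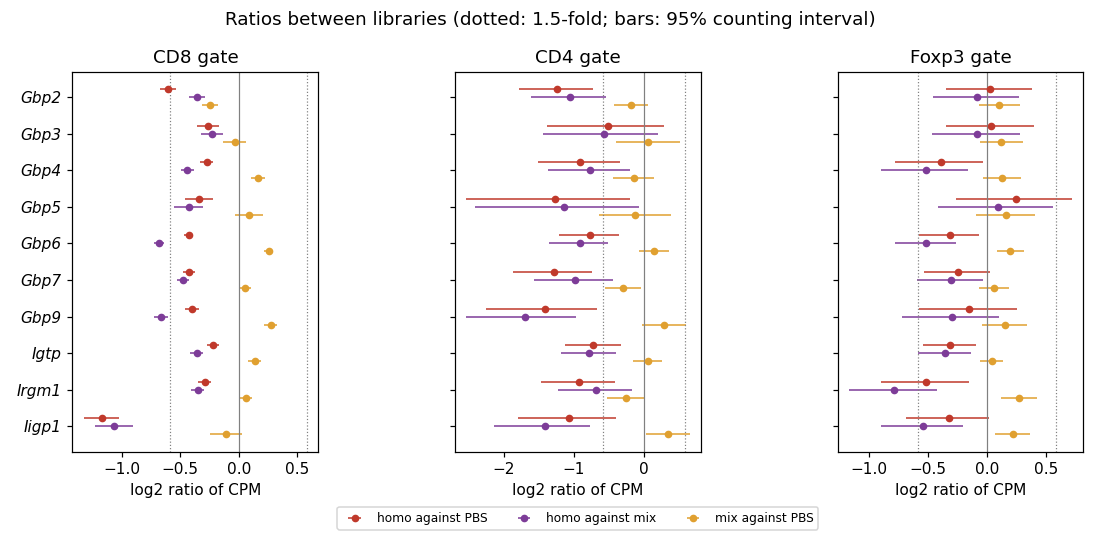
Log2 ratio of CPM (horizontal axis) for each GTPase between libraries, with 1 panel per gate; points are ratios, bars exact 95% counting intervals, dotted lines the 1.5-fold limit. In the CD8 gate all homo ratios lie left of 0, and Iigp1 is farthest left at -1.17 against PBS and -1.07 against mix.

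The genes nearest to the members in sequence and position did not all move with them. Of 14 listed relatives 9 were in the files and 5 passed the floor in the CD8 gate. Gbp10 was at 37.7 CPM in homo, 88.2 CPM in mix and 69.1 CPM in PBS, so its log2 ratio of homo to PBS was -0.88 (-0.96 to -0.79). Ifi47, an IRG listed between Irgm1 and Igtp in gene order, was at 277 CPM in homo, 454 CPM in mix and 429 CPM in PBS. Its log2 ratio of homo to PBS was -0.63 (-0.66 to -0.60). Tgtp2, next to Ifi47 in that order, and Irgm2, next to Igtp, were higher in homo than in PBS. Their log2 ratios were 0.31 (0.22 to 0.41) and 0.18 (0.07 to 0.30), below the 1.5-fold limit. Gbp8 was at 61.1 CPM in homo, 78.2 CPM in mix and 67.0 CPM in PBS. Thus 2 of these 5 relatives were at least 1.5-fold lower in homo than in PBS, beside 4.38% of all genes, and 0 were higher, beside 2.89%. The list median was -0.13, beside -0.050 over all genes. In mix against PBS the chromosome 5 relatives Gbp8 and Gbp10 stood at 0.22 and 0.35, on the same side as Gbp4 (0.16), Gbp6 (0.25) and Gbp9 (0.27), while the chromosome 3 members lay between -0.25 and 0.09.

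In the CD4 gate the summed members were at 1128 CPM in homo, 2184 CPM in mix and 2201 CPM in PBS. For homo, the log2 ratio was -0.96 against PBS (-1.14 to -0.79) and -0.95 against mix (-1.13 to -0.78), and mix and PBS did not differ beyond counting error (-0.01, -0.10 to 0.07). All members but Gbp3 were at least 1.5-fold lower in homo than in PBS, 9 of 10, where 17.7% of 6471 genes were lower, and 0 of 10 were higher, where 11.5% were. The high share over all genes goes with the 70 cells and 275746 UMIs of the homo CD4 gate. Against mix the count was also 9 of 10, without Gbp3, beside 15.8% of genes lower, and 0 were higher, beside 12.6% of genes. Between mix and PBS 0 members were apart, beside 5.77% of genes higher and 6.14% lower in mix.

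Single genes of the CD4 gate spread widely in homo. Gbp2 was at 127 CPM in homo, 264 CPM in mix and 299 CPM in PBS, with a log2 ratio of homo to PBS of -1.23 (-1.79 to -0.72). Gbp9 was at 58.0 CPM in homo, 188 CPM in mix and 154 CPM in PBS, at -1.41 against PBS (-2.25 to -0.66) and -1.70 against mix (-2.53 to -0.96). Igtp, the highest member here, was at 228 CPM in homo, 391 CPM in mix and 376 CPM in PBS. For these genes homo was below both other libraries beyond counting error. Iigp1 was at 76.2 CPM in homo, 203 CPM in mix and 159 CPM in PBS, and Gbp3 at 58.0 CPM in homo, 86.0 CPM in mix and 82.4 CPM in PBS. For Gbp3 the interval against PBS reached from -1.38 to 0.28, and 16 UMIs stood behind its homo value.

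The CD4 gate also held UMIs of genes listed as markers of other cell types, with lists that ran in different directions between libraries. The 10 dendritic cell markers summed to 43.5 CPM in homo, with 3 of 10 detected, 332 CPM in mix, with 7 of 10, and 1490 CPM in PBS, with 6 of 10. Cd74, an MHC class II partner that activated T cells can also carry, made up 32.6, 229 and 904 CPM of these sums in homo, mix and PBS, and Cd209a was at 0 in each library. The 10 macrophage markers summed to 10.9 CPM in homo, 16.8 CPM in mix and 54.6 CPM in PBS, and the 7 NK cell markers to 14.5 CPM in homo, 61.7 CPM in mix and 265 CPM in PBS. By contrast, the sum of the 3 endothelial markers was highest in homo, at 105 CPM in homo, 59.8 CPM in mix and 54.6 CPM in PBS. In homo all of it was Pecam1, with Kdr and Cdh5 at 0. All 3 had UMIs in mix and PBS, most of them Pecam1. Whether the Pecam1 UMIs came from endothelial cells was not tested. The marker set used above for the CD8 gate counts Pecam1 but neither NK genes nor Cd74. Cells with at least 2 UMIs of it were 14.3% of the gate in homo, 4.53% in mix and 4.73% in PBS. Without those cells the log2 ratio of homo to PBS was -0.84. Without cells that carried at least 2 UMIs of MHC class II genes, a setting added after these sums were seen, it was -1.05, and the part of NK cell RNA was not tested.

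In the Foxp3 gate the libraries lay closer together. The summed members were at 1876 CPM in homo, 2446 CPM in mix and 2228 CPM in PBS, log2 ratios of -0.25 for homo to PBS (-0.35 to -0.15), -0.38 for homo to mix (-0.48 to -0.28) and 0.13 for mix to PBS (0.09 to 0.18). No member was 1.5-fold apart between homo and PBS, beside 10.0% of genes lower and 12.1% higher. Between homo and mix Irgm1 alone passed the limit, 1 of 10, beside 9.17% of genes lower and 11.1% higher. Between mix and PBS the count was 0, beside 1.07% of genes lower and 0.785% higher.

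Irgm1 was at 138 CPM in homo, 239 CPM in mix and 197 CPM in PBS in the Foxp3 gate, so its log2 ratio of homo to mix was -0.79 (-1.18 to -0.43). Igtp was at 391 CPM in homo, 501 CPM in mix and 487 CPM in PBS. Iigp1 was at 161 CPM in homo, 234 CPM in mix and 202 CPM in PBS. Homo was lowest for all 3 IRGs, with the interval of Iigp1 against PBS reaching 0.02. Gbp2, Gbp3 and Gbp5 did not follow: in homo against PBS their log2 ratios were 0.02 (-0.35 to 0.38), 0.03 (-0.35 to 0.40) and 0.25 (-0.26 to 0.73). In this gate the dendritic markers summed to 257 CPM in homo, 791 CPM in mix and 598 CPM in PBS, most of it Cd74, and the 10 macrophage markers to 10.5 CPM in homo, 56.9 CPM in mix and 69.4 CPM in PBS, and their part in the ratios was not tested beyond leaving such cells out. Without cells carrying MHC class II RNA the summed log2 ratio of homo to PBS was -0.20.

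The summed members were higher in the Foxp3 than in the CD8 gate of the same library, by 1.15 on the log2 scale in homo (1.06 to 1.25), 1.04 in mix (1.004 to 1.07) and 1.02 in PBS (0.98 to 1.05). In homo 7 of 10 members were at least 1.5-fold higher in the Foxp3 gate, beside 29.9% of genes. In mix 7 of 10 were, beside 20.4%, and in PBS 8 of 10, beside 20.2%. No member was lower in the Foxp3 gate by that limit, beside 11.5% of genes in homo, 9.38% in mix and 9.15% in PBS. Gbp3, Gbp5, Gbp7, Igtp and Iigp1 passed in all 3 libraries. Iigp1 was under the floor in the CD8 gate of homo and is counted there only through its Foxp3 gate level.

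Iigp1 differed most between gates. In the Foxp3 gate it was at 161 CPM in homo, 234 CPM in mix and 202 CPM in PBS, against 10.7 CPM in homo, 22.3 CPM in mix and 24.0 CPM in PBS in the CD8 gate. The log2 ratios were 3.92 in homo (3.55 to 4.26), 3.39 in mix (3.25 to 3.54) and 3.07 in PBS (2.92 to 3.21), and the intervals of homo and PBS did not overlap. In the CD8 gate of homo Iigp1 was under the 20 CPM floor, so it entered that comparison only through the Foxp3 gate. Igtp, in contrast, stood at much the same ratio in each library, 1.83 in homo, 1.82 in mix and 1.92 in PBS. Gbp9 was near even in mix alone, at 0.11 (-0.03 to 0.24). It stood at 0.48 in homo (0.07 to 0.86) and 0.23 in PBS (0.08 to 0.37). Igtp was first and Gbp6 second in level in the Foxp3 and CD4 gates of each library, whereas Gbp6 was first in the CD8 gates. In the CD4 gates and the homo Foxp3 gate the intervals of Igtp and Gbp6 met.

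**Figure D3:**
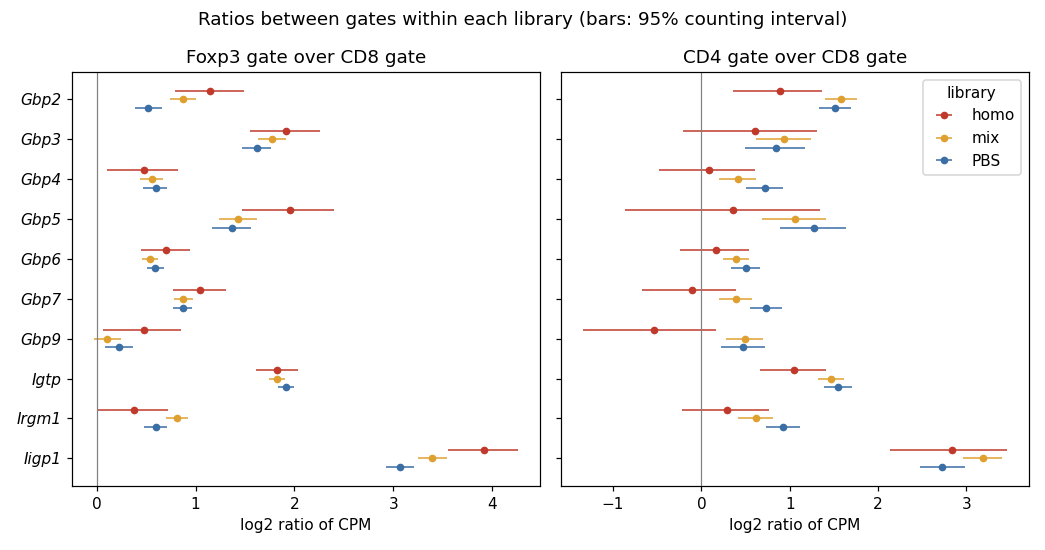
Log2 ratio of CPM (horizontal axis) for each GTPase between gates of the same library, with homo, mix and PBS as separate points and exact 95% counting intervals as bars. Iigp1 is farthest right, with Foxp3 over CD8 ratios of 3.92 in homo, 3.39 in mix and 3.07 in PBS, and is under the 20 CPM floor in the CD8 gate of homo. Among the Foxp3 over CD8 ratios, Gbp9 lies nearest 0 in mix and PBS and Irgm1 in homo.

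The CD4 gate exceeded the CD8 gate by less in homo. The summed log2 ratio of CD4 to CD8 was 0.42 in homo (0.25 to 0.58), 0.88 in mix (0.81 to 0.94) and 1.001 in PBS (0.94 to 1.07). At least 1.5-fold higher in the CD4 gate were 4 of 10 members in homo, beside 26.8% of genes, 6 of 10 in mix, beside 19.2%, and 8 of 10 in PBS, beside 21.5%. No member was lower by that limit, beside 11.1% of genes in homo, 8.37% in mix and 8.39% in PBS. Gbp2, Gbp3, Igtp and Iigp1 were the members that passed in each library. For Gbp3 in homo the interval reached from -0.21 to 1.305, with 16 UMIs in the CD4 gate. In homo Iigp1 was under the floor in the CD8 gate and is counted only through its CD4 gate level. The Foxp3 gate exceeded the CD4 gate by 0.73 in homo (0.55 to 0.92) and by 0.16 in mix (0.10 to 0.23), but not beyond counting error in PBS (0.02, -0.05 to 0.09). In the CD4 gate 7 regulatory T cell markers, Foxp3 among them at 0, summed to 1922 CPM in homo, 2344 in mix and 2383 in PBS. In the Foxp3 gate they summed to 5295, 6185 and 6384 CPM. How many CD4 gate cells were regulatory cells without a captured Foxp3 UMI was not tested. Members at least 1.5-fold higher in the Foxp3 than in the CD4 gate numbered 6 of 10 in homo, beside 18.9% of genes, 1 in mix, beside 10.1%, and 1 in PBS, beside 10.4%. Gbp2 ran the other way in mix and PBS: it was at 162 CPM in the Foxp3 gate and 264 CPM in the CD4 gate of mix, and at 150.2 and 299 CPM in those of PBS. It was the only member at least 1.5-fold lower in the Foxp3 gate there, beside 9.24% of genes in mix and 10.4% in PBS, and in homo 0 were lower, beside 11.3%.

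Shares of cells with a UMI followed the levels once each cell was thinned to 2000 UMIs, which left out 403 shallower CD8 gate cells of homo, 299 of mix and 334 of PBS. Gbp6 was found in 28.2% of thinned CD8 gate cells in homo (27.1 to 29.4%), 40.4% in mix (39.1 to 41.8%) and 36.7% in PBS (35.6 to 37.9%). Without thinning the shares were 57.5% in homo, 68.8% in mix and 61.4% in PBS, with median depths of 6912, 5651 and 5113 UMIs. Thus Gbp6 had its lowest share in homo at either depth. After thinning, every member was found in the smallest share of CD8 gate cells in homo. Without thinning, Gbp3, Gbp4, Gbp5, Igtp and Irgm1 were found in a larger share of cells in homo than in PBS, and the other members in a smaller one. Gbp3 was then found in 23.1% of cells in homo, 22.6% in mix and 21.1% in PBS. Iigp1 was found in 4.76% of CD8 gate cells in homo, 9.09% in mix and 8.85% in PBS without thinning, and in 2.17% of thinned CD8 gate cells in homo (1.82 to 2.57%), 4.33% in mix (3.80 to 4.91%) and 5.13% in PBS (4.62 to 5.68%). In the Foxp3 gate the thinned share of Iigp1 was 20.4% in homo (13.2 to 29.2%), 29.7% in mix (26.4 to 33.2%) and 26.2% in PBS (22.97 to 29.5%), and 32.3%, 41.8% and 37.1% without thinning, at median depths of 3368, 3472 and 3093 UMIs. No cell type that should lack these genes was defined in the sort, so no background share from free RNA can be given. The members did not keep 1 ratio across gates: Iigp1 made up 1.26% of their summed UMIs in the CD8 gate of homo, 1.87% in mix and 2.19% in PBS, and 8.58%, 9.59% and 9.05% in the Foxp3 gates.

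The lower level in homo went with more CD8 gate cells without any of the transcripts and fewer with many. After thinning, 26.9% of homo cells held no GTPase UMI (25.8 to 28.0%), against 17.4% of mix cells (16.4 to 18.5%) and 20.5% of PBS cells (19.5 to 21.4%). At least 10 UMIs were held by 0.916% of homo cells (0.693 to 1.19%), 2.61% of mix cells (2.20 to 3.08%) and 3.07% of PBS cells (2.67 to 3.50%). The mean was 1.85 UMIs per cell in homo, 2.67 in mix and 2.54 in PBS. Mix thus had the fewest empty cells, and PBS the most cells at the top end. In the Foxp3 gates 4.63% of homo cells, 6.06% of mix cells and 5.70% of PBS cells held none.

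**Figure D4:**
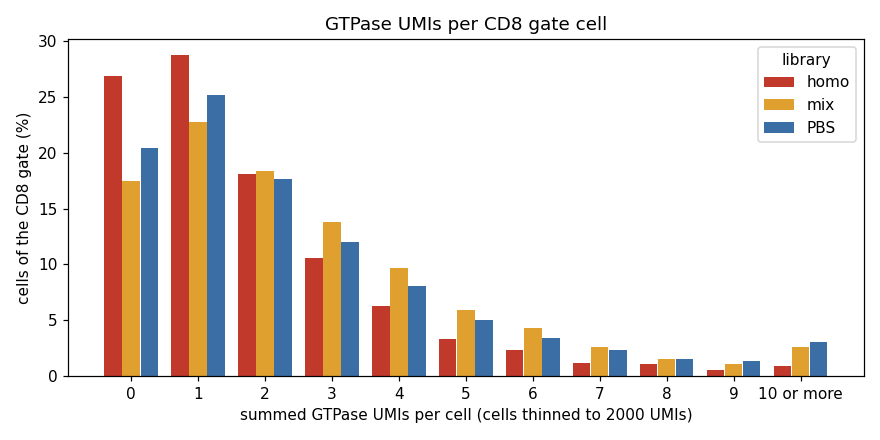
Share of CD8 gate cells (vertical axis, percent) by summed UMIs of the 10 GTPases per cell after thinning to 2000 UMIs (horizontal axis, last class 10 or more), in homo, mix and PBS. Cells with no GTPase UMI are 26.9% in homo, 17.4% in mix and 20.5% in PBS.

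Within the CD8 gate the members varied with other transcripts of the same cells. Cells with a UMI of Tcf7, a factor of naive, memory and stem-like T cells, averaged 2.26 GTPase UMIs in homo, 3.05 in mix and 3.66 in PBS, against 1.82, 2.63 and 2.46 in cells without one. Cells with Havcr2, the inhibitory receptor TIM-3, averaged 1.74 in homo, 2.40 in mix and 1.97 in PBS, against 1.89, 2.75 and 2.73 in cells without it. Cells with Gzmb, a granule protease, averaged 1.95 in homo, 2.80 in mix and 2.67 in PBS, against 1.69, 2.15 and 1.99 without it. Thus Tcf7 and Gzmb cells lay above, and Havcr2 cells below, their counterparts in all 3 libraries. Among the members Iigp1 had the highest log2 ratio of Tcf7 cells to other cells in each library, 1.51 in homo, 1.37 in mix and 1.41 in PBS. Gbp2 stood at 0.70, 1.14 and 1.21 in the same libraries, while Gbp3 lay at 0.05, -0.17 and -0.14. Cells with the proliferation gene Mki67 were below cells without it, at log2 ratios of -0.34 in homo, -0.13 in mix and -0.18 in PBS.

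Cells that carried Ifng itself were not higher in GTPases. Their mean was 1.76 UMIs in homo, 2.46 in mix and 2.32 in PBS, against 1.88, 2.77 and 2.65 in cells without Ifng, log2 ratios of -0.09 (-0.15 to -0.03), -0.17 (-0.22 to -0.12) and -0.19 (-0.24 to -0.14). Cells with Pdcd1, the receptor PD-1, were below cells without it by -0.11 in homo (-0.16 to -0.05) and -0.27 in PBS (-0.31 to -0.22), but not beyond counting error in mix (-0.01, -0.06 to 0.03). Lag3 cells, too, differed by library: the log2 ratio of cells with Lag3 to cells without it was 0.03 in homo (-0.03 to 0.08), -0.21 in mix (-0.26 to -0.17) and -0.50 in PBS (-0.54 to -0.45). Cells with Itgae, an integrin of tissue-resident T cells, were few, 41 in homo, 61 in mix and 122 in PBS, and differed from other cells by -0.02 in homo (-0.36 to 0.31), 0.23 in mix (0.01 to 0.43) and 0.64 in PBS (0.51 to 0.77). Homo lay below PBS in every one of these classes, with or without the transcript, between -0.18 in Havcr2 cells and -1.10 in Itgae cells. In cells without Lag3 the log2 ratio of homo to PBS was -0.74 (-0.79 to -0.68), and in cells with Lag3 it was -0.21 (-0.26 to -0.16). Spread among cells stands outside the intervals of all these classes, so those that end near 0 are not read as differences beyond it.

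Across cells, the members went most closely with genes known for type I interferon. For each of 5348 genes at 20 CPM or more in every CD8 gate, the Pearson correlation with the summed members was taken over thinned cells, and the lowest of the 3 libraries was kept. Among the 10 highest were Isg15 (0.48), Ifit3 (0.45), Ifit1 (0.40), Samhd1 (0.35), Irf7 (0.33), Usp18 (0.33), Rsad2 (0.33), Bst2 (0.32) and Ifit3b (0.30), over 6114 cells in homo, 5288 in mix and 6783 in PBS. The median over all other genes was -0.02 and the 99th percentile 0.18. These cells share a library and a depth, and the values describe these libraries only. Between single members the correlations were weak, with medians of 0.08 in homo, 0.10 in mix and 0.12 in PBS, and the highest was 0.26, between Gbp2 and Igtp in PBS.

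Isg15, a ubiquitin-like modifier, was therefore used to set cells side by side, a step chosen after that ranking was seen. It was at 454 CPM in homo, 822 CPM in mix and 769 CPM in PBS in the CD8 gate. Cells with at least 4 Isg15 UMIs after thinning were 9.03% of homo cells, 19.2% of mix cells and 18.1% of PBS cells, and cells with none were 59.3%, 42.2% and 48.1%. Because Isg15 was picked for its correlation with the summed members over these same cells, the higher GTPase means in each next class of Isg15 restate that ranking and are a description. Cells with no Isg15 UMI averaged 1.19 GTPase UMIs in homo, 1.505 in mix and 1.37 in PBS, and cells with at least 4 averaged 4.72 in homo, 5.07 in mix and 5.62 in PBS. At matched Isg15 the log2 ratio of homo to PBS was -0.20 at 0 UMIs (-0.26 to -0.14), -0.16 at 1 (-0.25 to -0.08), -0.12 at 2 to 3 (-0.19 to -0.04) and -0.25 at 4 or more (-0.32 to -0.19). Over all thinned cells it was -0.46, farther from 0 than in any of these classes. Isg15 was picked for its correlation with the members and was itself lower in homo. Ratios nearer 0 within its classes therefore go with that choice, and they too are a description. Mix stood above PBS at 0 UMIs, by 0.14 (0.07 to 0.20), and below it at 4 or more, by -0.15 (-0.20 to -0.10).

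**Figure D5:**
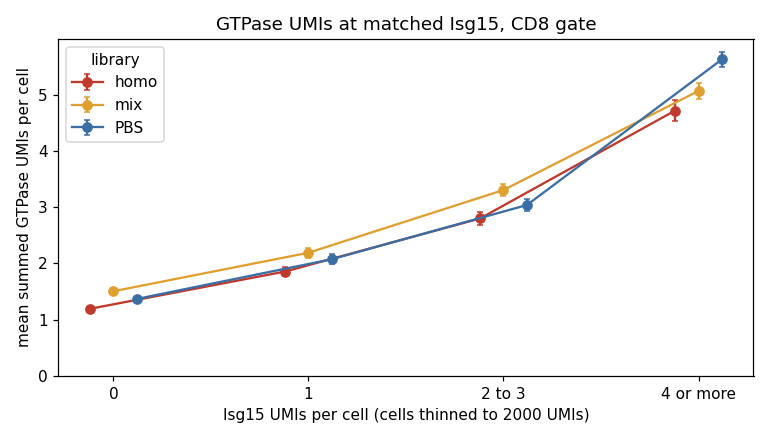
Mean summed GTPase UMIs per CD8 gate cell (vertical axis) by Isg15 UMIs of the cell (horizontal axis), both after thinning to 2000 UMIs, in homo, mix and PBS; bars are 95% counting intervals. Isg15 was picked for its correlation with these sums, so the slope is a description; cells with 4 or more Isg15 UMIs average 4.72 in homo, 5.07 in mix and 5.62 in PBS.

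The interferon-gamma pathway upstream of the members was read in the CD8 gate. Ifng was at 219 CPM in homo, 375 CPM in mix and 377 CPM in PBS, with a log2 ratio of homo to PBS of -0.79 (-0.82 to -0.75). The receptor chain Ifngr1 was at 552 CPM in homo, 632 CPM in mix and 677 CPM in PBS, and Ifngr2 was barely detected, at 0.510, 1.91 and 1.46 CPM. The kinases differed little, with log2 ratios of homo to PBS of 0.01 for Jak1 (-0.02 to 0.05) and 0.04 for Jak2 (-0.06 to 0.14). Irf1 was at 92.8 CPM in homo, 112 CPM in mix and 122 CPM in PBS, short of the 1.5-fold limit. Irf8, an interferon regulatory factor, was at 160 CPM in homo, 314 CPM in mix and 299 CPM in PBS, at -0.90 against PBS (-0.94 to -0.86). It was the 1 of 11 receptor and signalling genes past the floor that was lower by the limit, beside 4.38% of all genes. In that list 0 were higher, beside 2.89% of all genes, and its median was -0.17.

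Of the negative feedback genes, Socs1, Cish and Socs3 were lower in homo. Socs1, which blocks the kinases of the interferon-gamma receptor, was at 85.1 CPM in homo, 183 CPM in mix and 164 CPM in PBS, a log2 ratio of homo to PBS of -0.95 (-1.004 to -0.89). Cish was at 64.9 CPM in homo, 194 CPM in mix and 154 CPM in PBS, and Socs3 at 10.8 CPM in homo, 37.0 CPM in mix and 37.5 CPM in PBS. Thus 3 of 7 genes of this list were at least 1.5-fold lower in homo than in PBS and 0 higher, beside the 4.38% and 2.89% over all genes. Socs3 was under the floor in homo and entered only through the other libraries, and of the 6 genes at the floor in both libraries 2 were lower. The list's median was -0.32, beside -0.050 over all genes, and the other 4 genes were within 1.5-fold. Cish and Socs3 are also known as targets of interleukin-2 and other cytokines.

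Other interferon targets split by kind. Of 17 antigen presentation genes, MHC class I and immunoproteasome genes among them, 0 were 1.5-fold apart between homo and PBS in the CD8 gate. Beside them, 4.38% of all genes were lower and 2.89% higher. The list's median was -0.17. The 2 farthest were Psme2, a proteasome activator subunit, with 410 CPM in homo against 574 CPM in PBS, and H2-T22, with 442 CPM in homo against 599 CPM in PBS. Of 24 type I interferon-stimulated genes past the floor, 7 were lower and 0 higher, beside the same 4.38% and 2.89% of all genes, with a median of -0.39. Oasl1 and Oasl2 were under the floor in homo and entered only through the other libraries, and of the 22 genes at the floor in both homo and PBS 5 were lower. Oasl2 was at 15.6 CPM in homo, 48.1 CPM in mix and 45.7 CPM in PBS, and Irf7 at 269 CPM in homo, 522 CPM in mix and 482 CPM in PBS. Against mix the count of the type I interferon list was 13 of 24 lower, beside 4.12% of all genes, or 11 of 22 at the floor in both, and 0 higher, beside 2.71%. In mix against PBS 0 of 24 were apart, beside 0.361% of all genes higher and 0.551% lower, with a median of 0.21. A list of 9 genes held Ifng, genes linked to its induction and the type I interferon receptor chains Ifnar1 and Ifnar2. Of these 9 genes 2 were lower in homo than in PBS, Ifng and Il12rb2, beside 4.38% of all genes. In the same list 1 was higher, beside 2.89% of all genes, namely Il18r1, the interleukin-18 receptor. It was at 187 CPM in homo, 95.9 CPM in mix and 113 CPM in PBS. Of 10 autophagy and ubiquitin-like partners past the floor, the Isg15-conjugating enzyme Ube2l6 alone was lower in homo than in PBS by the 1.5-fold limit, at 46.3 and 93.7 CPM. This 1 of 10 stands beside 4.38% of all genes, and 0 were higher, beside 2.89%.

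The type I interferon list was also read in the other gates. In the CD4 gate 25 of 25 of its genes past the floor were at least 1.5-fold lower in homo than in PBS, beside 17.7% of all genes, and 23 of the 23 at the floor in both libraries. The list's median was -1.66, and Isg15 was at 326 CPM in homo, 1627 CPM in mix and 1614 CPM in PBS. In the Foxp3 gate 19 of 25 were lower, beside 10.0% of all genes, with a median of -0.92, while 0 of the 10 GTPases were, with a median of -0.28. The antigen presentation list gave 3 of 17 genes lower in the CD4 gate, a share near the 17.7% over all genes. In the Foxp3 gate 0 of 17 were lower, beside 10.0% of all genes. In either gate 0 were higher, beside 11.5% of all genes in the CD4 gate and 12.1% in the Foxp3 gate. Ifng ran the other way in the CD4 gate, at 178 CPM in homo, 47.7 CPM in mix and 52.4 CPM in PBS, a log2 ratio of homo to PBS of 1.76 (1.16 to 2.36) from 49 UMIs in each of homo and PBS.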

How the data were processed

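Single cells of 3 libraries were analysed from the UMI counts per gene and barcode that the authors deposited. Counts came from Cell Ranger 7.1.0 per the file headers, while per the submitters' processing notes it was version 2.1.1, with Seurat 4.1.0 and build mm39. Gene symbols and barcodes were taken from the deposited lists. Coordinates of mm39 were not used, and promoters were read from RefSeq (GRCm38.p6).

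Barcodes with at least 500 genes, 1000 UMIs and under 10% mitochondrial UMIs were kept. Because Scrublet (scanpy 1.11.5) marked almost no doublets with its own threshold, the highest scores were removed at 0.8% per 1000 kept barcodes. UMIs were summed per gate and scaled to CPM. Ratios carry an exact conditional binomial 95% interval of 2 Poisson counts and shares a Clopper-Pearson interval, and no test was made with 1 library per group. Statistics were run in Python 3.11.15 with numpy 2.4.6, scipy 1.17.1 and pandas 2.3.3, and were tested on simulated data.

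All members were named, with Ifng, Ifngr1, Ifngr2, Jak1, Jak2, Irf1, Irf8 and Socs1, up to 4 genes of each list with the largest CD8 gate ratio, and the 10 genes most alike across cells. Some results under this rule are not reported here. The members, 7 gene lists and most settings were chosen with earlier results of these data known.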

Additional observations from a re-analysis of the deposited data

Results flagged for a closer look

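All members and comparisons were searched for counting intervals that lay on opposite sides of 0 in 2 gates, and only Gbp7 was found. It was slightly higher in mix than in PBS in the CD8 gate, where the interval barely cleared 0, and lower in the CD4 gate. The CD8 gate of mix held 169 CPM of Gbp7 against 163 CPM in that of PBS, a log2 ratio of 0.051 (0.00076 to 0.10). The CD4 gate of mix held 221 CPM against 272 CPM in that of PBS, a log2 ratio of -0.295 (-0.56 to -0.03). The difference between the gates was not tested, and neither value passed 1.5-fold. Spread among cells stands outside both intervals.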

How the results depend on the processing

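With 1 library per group no library can be left out, and no replicate check exists. No paired analysis was possible because each group has 1 library. In every alternative that can move it, which the CPM floors and the 2-fold limit cannot, the summed log2 ratio of homo to PBS stayed below 0, between -0.48 and -0.33 in the CD8 gate, -1.05 and -0.67 in the CD4 gate and -0.40 and -0.20 in the Foxp3 gate. In mix against PBS it stayed above 0 in the CD8 gate (0.06 to 0.12) and the Foxp3 gate (0.11 to 0.21) and changed sign in the CD4 gate (-0.15 to 0.14). Lower in homo than in PBS in the CD8 gate, the count was 1 in place of 2 with a 50 CPM floor, a 2-fold limit, gates at 2 UMIs, gates on thinned cells, median of ratios scaling, scaling without mitochondrial, ribosomal and receptor genes, and without cells carrying RNA of other types. In the CD4 gate it was 5 in place of 9 with a 2-fold limit or gates on thinned cells, and in the Foxp3 gate 2 in place of 0 with gates on thinned cells and 1 with means of per-cell CPM. Lower in homo than in mix, the count was 1 in place of 3 in the CD8 gate and 4 in place of 9 in the CD4 gate at 2-fold. In the Foxp3 gate, in place of 1, it was 0 at 2-fold, 4 with gates at 2 UMIs, 5 with gates on thinned cells, 2 with means of per-cell CPM, 3 with thinned cells and 2 without cells carrying RNA of other types. In the CD4 gate 1 member, in place of 0, was higher in homo than in PBS with thinned cells. Higher in mix than in PBS there were 1 with gates on thinned cells and 3 with thinned cells, and lower 2 with gates at 2 UMIs, in place of 0. The share of all genes past the limit under each of these settings is not given here, so the counts cannot be set against it. The cause of these moves was not tested. The settings on MHC class II RNA and on 2 CD3 UMIs were chosen after seeing the data. The CD4 and Foxp3 gates of homo held 70 and 124 cells, and their counting intervals are wide.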

Other observations

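The UMIs per cell that held a transcript cannot fall below 1 and are given as values. In thinned CD8 gate cells with a Gbp6 UMI the mean was 1.38 UMIs in homo, 1.49 in mix and 1.47 in PBS, over 1726, 2138 and 2492 cells. Gbp2 averaged 1.25 UMIs in homo, 1.38 in mix and 1.53 in PBS, over 751, 819 and 1208 cells. The cell with the most Gbp2 UMIs before thinning held 14 in homo, 18 in mix and 26 in PBS. Igtp averaged 1.29, 1.31 and 1.34 UMIs in thinned CD8 gate cells of homo, mix and PBS, and 1.68, 1.88 and 1.82 in those of the Foxp3 gate.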
